A study of Mus musculus with 12 samples.

Results

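The 30 genes described here encode the contractile, calcium-handling and fuel-using proteins of skeletal muscle fibres, and they were read in oral tumours of mice. They were chosen by what they are known to do in muscle, with no threshold on their values. Earlier results of these data were known when they were chosen. All 30 were measured among 23102 genes, through 785 probesets. Of these genes, 13 are known mainly from fast fibres, 6 from slow fibres and 11 from fibres of both kinds, here called shared.

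The series holds 12 oral tumours of C57BL/6 × FVB F1 mice, 1 array per tumour, from total RNA on the Affymetrix Mouse Gene 2.0 ST array. All mice received tamoxifen by intraperitoneal injection. The 6 tumours of the first group came from mice labelled KR and expressed RAS. The 6 tumours of the second group came from mice labelled KHR and expressed RAS and iHPV, of which another label names HPV E6. What the letters KR and KHR stand for, the promoter that drives each allele, the site in the mouth, and the age, sex and number of the mice are not stated in the labels. No label ties each tumour to a mouse of its own, and p-values therefore reflect only how these arrays scatter, part of which may be technical. The tumours were checked with 10 keratinocyte genes, markers of oral epithelium, whose mean log2 value per array lay between 10.93 and 11.43 in KR and between 10.72 and 11.46 in KHR. The array medians over all probesets lay between 5.62 and 5.75, no 2 arrays correlated above 0.97, and the number of arrays limits the precision. Xist, which is transcribed from the inactive X chromosome of female cells, was above 8 on the log2 scale in 2 of 6 KR tumours and in 4 of 6 KHR tumours.

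A skeletal muscle fibre is a fused cell filled with sarcomeres, in which myosin filaments pull on actin filaments anchored at the Z-disc. Calcium released from the sarcoplasmic reticulum through the ryanodine receptor binds troponin C, and troponin I, troponin T and tropomyosin then uncover the actin for myosin. Fast and slow fibres use different genes for the same protein, so each fibre type has its own myosin heavy chain, myosin light chains and troponins. In tissue of the mouth, muscle fibres lie beneath the epithelium, and bulk RNA of a tumour holds whatever fibres were taken with it.

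Several of these genes are textbook targets of the myogenic factors, which bind E-boxes, of MEF2, and of the serum response factor, which binds the CArG box. RefSeq windows of 300 bases around the start site (assembly GRCm38.p6) matched 23 of the 30 genes, with 29 windows. Tnnt3, Tnni2, Actn3, Neb, Tcap, Myoz1 and Myot were not matched. On either strand, the letters CAGCTG stood in 15 of the 29 windows (51.7%), against 16.3% of all 32851 windows of that length. Windows of the same gene can overlap and count a site more than once, as for CAGCTG in Tnni1 and in Mb. The broader E-box CANNTG, of which CAGCTG is a case, stood in 25 (86.2%, against 72.3%). The MEF2 consensus stood in 4 windows (13.8%, against 3.19%), those of Myh1, Myh4, Pvalb and Ttn, and the CArG consensus in 3 (10.3%, against 1.63%), those of Acta1, Myh4 and Myl3. The letters CATTCC stood in 9 windows (31.0%, against 14.7%) and TATAAA in 7 (24.1%, against 13.6%). These matches describe letters only.

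Of the windows, 4 are shown, each of a gene whose value followed the muscle genes or, for Myh4, followed them in 1 tumour alone. Acta1 encodes skeletal actin and lies on the minus strand, chr8:123894726-123895025. Ttn encodes titin, the spring that spans the sarcomere, and lies on the minus strand, chr2:76982498-76982797. Myh1 and Myh4 encode the fast myosin heavy chains IIx and IIb and lie on the plus strand of one chromosome, chr11:67199852-67200151 and chr11:67237562-67237861. The sequences run 5′ to 3′, and capitals mark CAGCTG, the MEF2 consensus and the CArG consensus.
Acta1 promoter: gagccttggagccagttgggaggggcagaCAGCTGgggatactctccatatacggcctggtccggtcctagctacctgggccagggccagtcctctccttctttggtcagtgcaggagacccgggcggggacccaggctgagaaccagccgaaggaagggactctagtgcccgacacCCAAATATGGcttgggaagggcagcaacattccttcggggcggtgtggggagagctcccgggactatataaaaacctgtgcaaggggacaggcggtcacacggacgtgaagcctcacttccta
Ttn promoter: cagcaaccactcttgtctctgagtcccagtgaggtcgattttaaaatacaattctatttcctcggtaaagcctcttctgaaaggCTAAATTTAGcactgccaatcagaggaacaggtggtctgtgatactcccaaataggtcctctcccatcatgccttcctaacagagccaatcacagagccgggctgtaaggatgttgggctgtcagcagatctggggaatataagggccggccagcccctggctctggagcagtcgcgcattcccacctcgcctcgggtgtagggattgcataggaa
Myh1 promoter: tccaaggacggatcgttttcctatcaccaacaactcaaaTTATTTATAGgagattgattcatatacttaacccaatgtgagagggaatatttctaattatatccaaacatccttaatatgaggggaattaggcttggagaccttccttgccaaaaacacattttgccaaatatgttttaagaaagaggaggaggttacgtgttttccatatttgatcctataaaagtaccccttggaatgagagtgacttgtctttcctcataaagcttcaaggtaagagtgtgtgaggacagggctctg
Myh4 promoter: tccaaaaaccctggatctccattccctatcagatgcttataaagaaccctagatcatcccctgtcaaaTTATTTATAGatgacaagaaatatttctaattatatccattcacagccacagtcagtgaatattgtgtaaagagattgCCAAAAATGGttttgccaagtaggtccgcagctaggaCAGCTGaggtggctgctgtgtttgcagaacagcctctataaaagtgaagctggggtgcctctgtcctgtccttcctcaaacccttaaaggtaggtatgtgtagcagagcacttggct
The windows of Myh1 and Myh4 hold the MEF2 consensus in the same 10 letters, and the window of Myh4 alone among these 4 holds all 3 marked motifs. The letters in the 2 myosin windows are given for comparison with the values of the 2 genes, which differed across the tumours as described with the myosins.

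The muscle genes varied widely from tumour to tumour, and mostly together. For each tumour, a muscle level was taken as the mean over the 30 genes of the difference between a gene's log2 value and that gene's own mean over the 12 arrays. It does not give a share of muscle in the tumour, since no muscle sample was measured beside the tumours. In KR the level was -0.79 in tumour 1, -0.10 in tumour 2, -0.23 in tumour 3, 0.06 in tumour 4, 0.36 in tumour 5 and -0.60 in tumour 6. In KHR it was -0.79 in tumour 1, 0.45 in tumour 2, -0.06 in tumour 3, 0.61 in tumour 4, 1.33 in tumour 5 and -0.24 in tumour 6. KHR 5 stood highest, KR 1 and KHR 1 lowest, and the groups overlapped over most of their span. In both groups the tumour numbers ran, from lowest to highest level, 1, 6, 3, 2, 4 and 5. The range over 12 tumours was 2.12 on the log2 scale, or 4.34-fold, and without KHR 5 it was 1.40, or 2.64-fold. In bulk tumours, fewer muscle fibres and less muscle RNA per fibre cannot be told apart.

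The group means of the muscle level were -0.22 ± 0.42 in KR and 0.22 ± 0.74 in KHR (SD, n = 6 each). Without KHR 5 the KHR mean was -0.01 ± 0.56. KHR 5 was the highest array for 27 of the 30 genes, and 29 of the 30 lay above their own mean there. KHR 4 had 27 genes above their own mean, KR 5 had 24 and KHR 2 had 23, against 2 in KR 1 and 4 each in KR 6 and KHR 1. KHR 1 was the lowest array for 10 genes, KR 1 for 7 and KR 6 for 5. High and low tumours thus occurred in both groups.

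**Figure D1:**
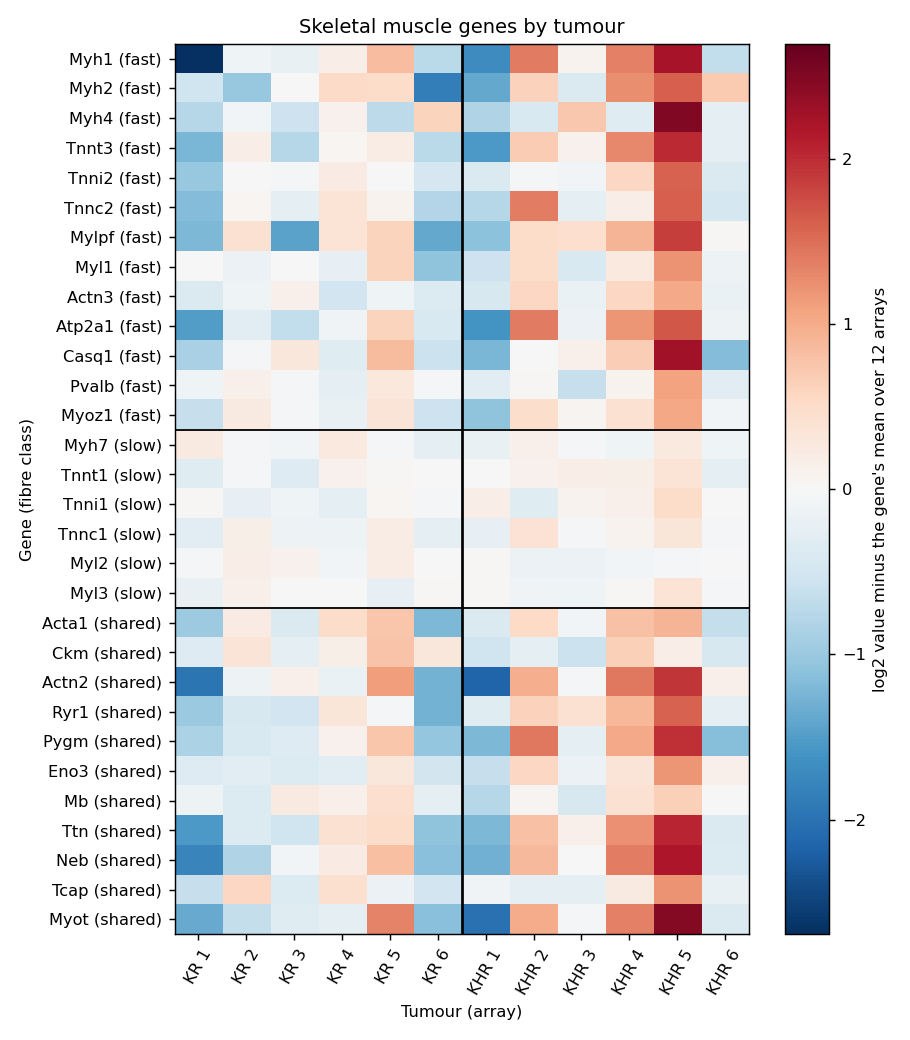
Heat map of the 30 muscle genes (rows, by fibre class) in the 12 tumours (columns, KR left and KHR right of the line); colour is the log2 value minus the gene's mean over 12 arrays. Red fills most of the KHR 5 column, the highest array for 27 of 30 genes, and the slow rows stay pale.

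The tumour-to-tumour variation lay in the fast and shared genes and was small in the slow genes, whose values were all low. The mean level of the 13 fast genes ranged over 2.66 on the log2 scale (6.32-fold) and that of the 11 shared genes over 2.48 (5.57-fold). That of the 6 slow genes ranged over 0.40 (1.32-fold). Without KHR 5 these ranges were 1.64 (3.11-fold), 1.88 (3.67-fold) and 0.14 (1.10-fold), in the same order. In KHR 5 the fast level was 1.67, the shared level 1.49 and the slow level 0.30. In KR 1 they were -0.93, -0.99 and -0.10, and in KHR 1 they were -0.99, -0.97 and -0.03. The slow level was -0.04 ± 0.06 in KR and 0.04 ± 0.13 in KHR (SD, n = 6 each), and the fast level was -0.26 ± 0.46 and 0.26 ± 0.91.

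The median SD within groups was 0.94 for the fast genes, 0.73 for the shared genes and 0.20 for the slow genes, beside 0.23 for all 23102 genes. All 24 fast and shared genes, and none of the slow genes, were in the tenth of all genes with the largest SD, above 0.41. All 6 slow genes lay below the median value of all genes, 4.98, on all 12 arrays, with values between 3.51 and 4.93. No detection call is used here, and intensities of different genes do not measure their relative amounts, so the low slow values do not by themselves give the ratio of slow to fast fibres. Whether low intensity narrowed the spans of the slow genes was not tested.

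**Figure D2:**
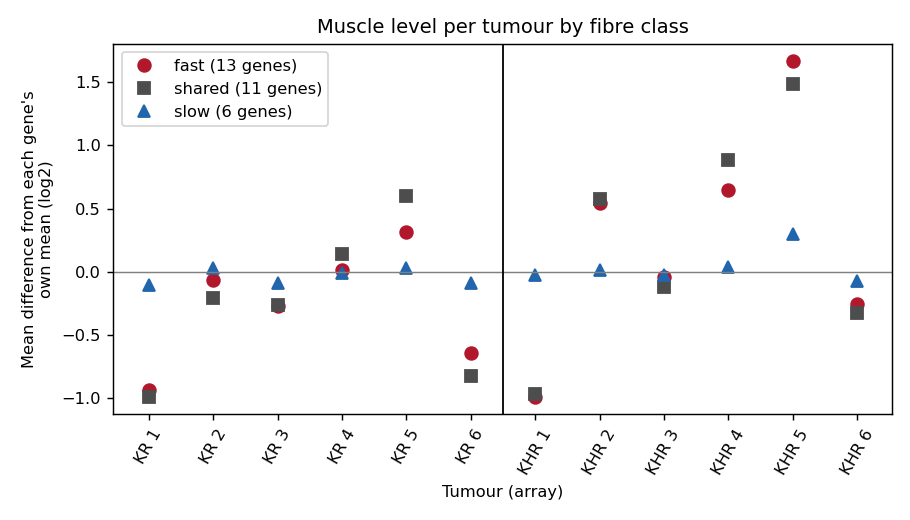
Mean difference from each gene's own mean (log2) per tumour for the 13 fast, 11 shared and 6 slow genes, with 1 point per tumour and class. Fast and shared points run together from about -0.99 in KHR 1 to 1.67 and 1.49 in KHR 5, whereas the slow points stay between -0.10 and 0.30.

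The spans of single genes given next are over all 12 tumours. Without KHR 5, those of Myh4 (1.54), Tnni2 (1.58), Casq1 (2.08), Pvalb (0.89), Tnni1 (0.51), Myl3 (0.36), Eno3 (1.17) and Tcap (1.17) were narrower by more than 1.5 times.

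Among the myosin heavy chains, the motors that set the speed of a fibre, Myh1 had the widest span of all 30 genes. The log2 value of Myh1 was 5.12 at its lowest, 7.66 at the median and 8.64 at its highest in KR, and 6.12, 8.54 and 10.03 in KHR. KR 1 was lowest and KHR 5 highest, 30.2-fold apart, and the groups overlapped. Myh2, the IIa motor of fast oxidative fibres, lay at 5.12, 6.72 and 7.51 in KR and at 5.62, 7.65 and 8.59 in KHR, with KR 6 lowest. Myh4, the IIb motor of the fastest fibres, lay at 3.95, 4.40 and 5.30 in KR and at 3.90, 4.41 and 7.22 in KHR. KHR 5 thus stood alone for Myh4, with the next tumour, KHR 3, at 5.43. The 3 genes are neighbours with near-identical sequences, so it is uncertain how far their probesets separate them. Myh7, the slow motor, lay between 3.59 and 4.12 in KR and between 3.66 and 4.12 in KHR, so its whole span was 0.53.

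The troponins, the calcium switch on the thin filament, showed the same contrast in span, again with low values of the slow genes. Fast troponin T, Tnnt3, lay at 5.70, 6.60 and 7.14 in KR and at 5.39, 7.34 and 8.96 in KHR (lowest, median and highest). KHR 1 was lowest and KHR 5 highest, 11.8-fold apart. Fast troponin C, Tnnc2, spanned 2.78 and fast troponin I, Tnni2, spanned 2.62 on the log2 scale over the 12 tumours. The slow forms Tnnt1, Tnnc1 and Tnni1 spanned 0.72, 0.69 and 0.82. Among the myosin light chains, the fast regulatory chain Mylpf lay at 5.29, 6.31 and 7.33 in KR and at 5.62, 7.19 and 8.58 in KHR. The fast essential chain Myl1 spanned 2.29. The slow chains Myl2 and Myl3 spanned 0.36 and 0.59, and Myl2 had the smallest span of the 30 genes.

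The genes that build the sarcomere in every fibre also varied widely. Ttn, read by 272 probesets, lay at 6.47, 7.55 and 8.50 in KR and at 6.80, 8.47 and 10.07 in KHR. Neb, nebulin, which runs along the thin filament, was read by 140 probesets and lay at 5.97, 7.31 and 8.56 in KR and at 6.44, 8.17 and 9.91 in KHR. For both genes KR 1 was the lowest tumour and KHR 5 the highest, 12.1-fold apart for Ttn and 15.4-fold for Neb. Myot, myotilin of the Z-disc, lay at 4.98, 5.84 and 7.67 in KR and at 4.31, 6.79 and 8.80 in KHR, a 22.5-fold span. Actn2, the Z-disc actinin of all fibres, spanned 4.07 on the log2 scale (16.8-fold), while the fast-fibre actinin Actn3 spanned 1.55. Acta1 lay at 8.17, 9.30 and 10.12 in KR and at 8.72, 9.60 and 10.29 in KHR. Tcap, which caps titin at the Z-disc, and Myoz1, a Z-disc binder of calcineurin, spanned 1.83 and 2.13.

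All 4 calcium genes were highest in KHR 5. Atp2a1, the calcium pump of fast fibres, lay at 6.34, 7.49 and 8.45 in KR and at 6.23, 8.37 and 9.51 in KHR. Ryr1, the calcium release channel, lay at 5.14, 5.93 and 6.72 in KR and at 6.08, 6.92 and 8.0 in KHR. The lowest KHR tumour for Ryr1 was KHR 1, which stood above 4 of the 6 KR tumours. Casq1, the calcium store protein of fast fibres, spanned 3.49 and Pvalb, a calcium buffer of fast fibres, spanned 1.69. Among the fuel genes, Pygm, the glycogen phosphorylase of muscle, lay at 5.19, 5.85 and 6.98 in KR and at 5.03, 6.61 and 8.21 in KHR. Eno3, muscle enolase, spanned 1.81, and Mb, the oxygen store myoglobin, spanned 1.39.

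Ckm, the muscle creatine kinase, spanned 1.34, the least of the 24 fast and shared genes, and its probesets divided by their numbers. Its 13 probesets fell into 2 runs of consecutive probeset numbers. The first run of 8 had mean values between 4.19 and 9.08, and its brightest probeset went from 6.58 in KHR 1 to 11.08 in KHR 5. The second run of 5 had mean values between 3.60 and 4.01. The median of the first run was 5.26, 5.62, 5.55, 6.00, 8.03 and 5.31 in KR 1 to 6 and 4.49, 7.48, 5.84, 7.92, 8.63 and 6.50 in KHR 1 to 6. The median of the second run stayed between 3.59 and 3.92. The gene value, a median over both runs, therefore sat between them. What the second run measures is not known here.

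**Figure D3:**
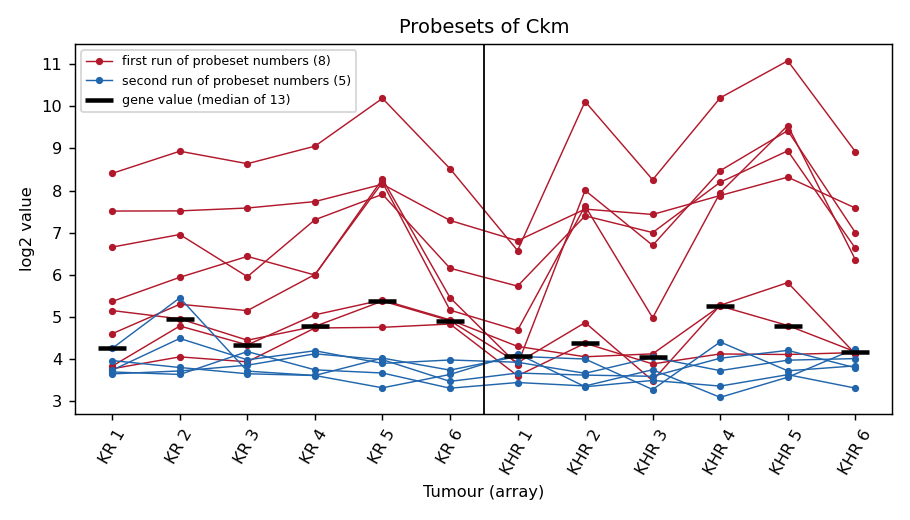
Log2 value of each of the 13 Ckm probesets in the 12 tumours, coloured by run of probeset numbers, with the gene value as a black bar. Several lines of the first run climb to KR 5, KHR 2, KHR 4 and KHR 5, up to 11.08 in KHR 5, while the second run stays dim, between 3.59 and 3.92 at its median, and the gene value lies between the runs.

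The comparison of KHR with KR asks how the tumours that carried iHPV beside RAS differed from those with RAS alone. None of the 30 muscle genes passed limma's test with Benjamini-Hochberg adjustment over all genes at 0.05, where 863 of 23102 genes (3.74%) did. Of these, 625 (2.71% of all genes) were higher in KHR and 238 (1.03%) lower. With quantile normalization, 480 of 845 calls were higher. Under 0.05 by the unadjusted limma p stood 1 muscle gene, against 15.9% of all genes. Without KHR 1, the lowest KHR tumour, these were 13 muscle genes and 18.1% of all genes, and again none of the 30 passed after adjustment. The groups of 6 overlapped for all 30 genes, whereas they did not overlap for 2.67% of all genes. The muscle genes' limma adjusted p lay between 0.135 and 0.995 in this fit, which has no block. With the tumour number as a block in the fit, 4 of the 30 passed. These were Ryr1 (limma adjusted p = 0.00696), Ttn (0.0164), Neb (0.0381) and Myh1 (0.0385). The block put 12 muscle genes under an unadjusted limma p of 0.05, against 17.5% of all genes. The labels do not say what tumours of the same number share.

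The differences were mostly positive, with wide errors. The change was positive for 26 of 30 muscle genes, beside 51.0% of all genes, and its median was 0.44, beside 0.0045 for all genes. Without KHR 5 the median was 0.18 and 22 of 30 were positive. The 7 macrophage genes read beside them were also all positive, with a median of 0.27 and none past the limma test, and their part in the muscle difference was not tested. The gene with the lowest p was Ryr1, at 5.92 ± 0.59 in KR and 6.90 ± 0.72 in KHR (SD, n = 6 each). Its difference was 0.98 ± 0.33 (SE), with a 95% confidence interval from 0.27 to 1.69 and an limma adjusted p of 0.135. Neb differed by 0.91 ± 0.55, Myh1 by 0.91 ± 0.66, Ttn by 0.88 ± 0.50 and Mylpf by 0.88 ± 0.49, with limma adjusted p between 0.424 and 0.574. Myh7, Myl2, Ckm and Mb had negative differences, of -0.03, -0.13, -0.32 and -0.03. That of Ckm was 0.93 when the gene value was taken over its brighter probesets, a setting chosen after seeing the data, with an limma adjusted p of 0.502. The confidence interval of 17 of the 30 genes included a difference of 1, a 2-fold higher value in KHR, so 6 tumours a group do not limit the difference of these genes to under 2-fold.

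**Figure D4:**
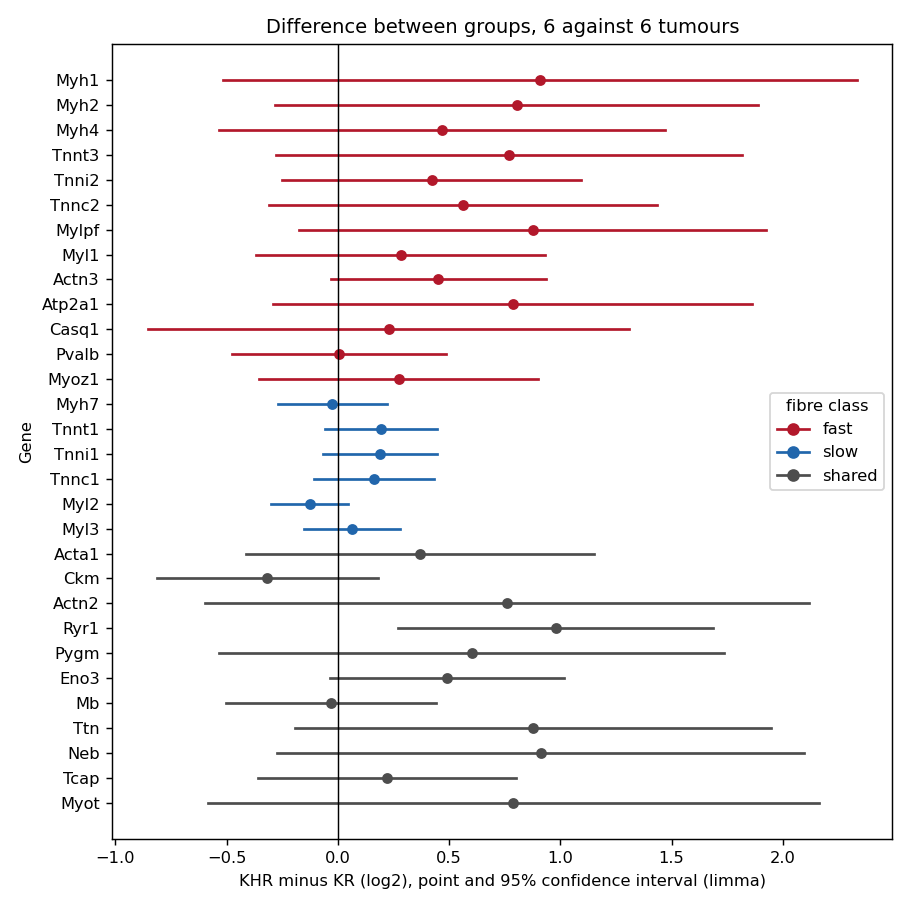
Difference KHR minus KR (log2) for each of the 30 genes, as the limma estimate with its 95% confidence interval, coloured by fibre class. Only the interval of Ryr1, 0.27 to 1.69, lies wholly above 0, and the intervals of the slow genes are the narrowest.

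The 785 probesets were also taken singly. They read the same 30 genes on the same arrays, so they are no separate support. None passed limma's test over all probesets, where 1.02% did, and 88.2% had a positive difference, beside 51.7% of all probesets. Of the 692 with a positive difference, 264 were of Ttn and 134 of Neb. The spread between tumours was larger in KHR than in KR for 26 of the 30 genes, and for 20 without KHR 5, beside 52.4% of all genes. With the level of Xist as a covariate, none of the 30 genes passed and the median change was 0.38.

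Fast and slow forms of the same protein were compared in 7 pairs, as the log2 value of the fast gene minus that of the slow gene in each tumour. In 6 of the pairs the slow gene varied little, so this difference followed mainly the fast gene, and only its change between groups is read, not its size. None passed an exact two-sided permutation test of 6 against 6, before or after adjustment over the 7 pairs, where the smallest p the design allows is 0.00216. The difference was positive in 6 of 7 pairs. The largest was that of Mylpf over Myl2, at 2.00 ± 0.95 in KR and 3.00 ± 1.01 in KHR (SD, n = 6 each), with an exact p of 0.0866 and an adjusted p of 0.589. Tnnt3 over Tnnt1 differed by 0.58 ± 0.50 (SE), Myh4 over Myh7 by 0.49 ± 0.52, and Tnnc2 over Tnnc1 by 0.40 ± 0.37. Actn3 over Actn2, where Actn2 is the form of all fibres, differed by -0.31 ± 0.56.

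Within groups, most muscle genes varied with one another. Over the 435 pairs of genes the median Pearson r was 0.55 in KR and 0.80 in KHR, and 0.69 over 12 tumours with group means subtracted (0.60 without KHR 5). All genes of a tumour share its array, so these values are a description. The median r was 0.75 among fast genes, 0.83 among shared genes and 0.79 between the classes. It was 0.27 among slow genes and 0.37 between fast and slow, and without KHR 5 these were -0.09 and 0.07.

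Some genes tracked the rest closely. The r of a gene with the mean of the other 29 was 0.98 for Ttn, 0.96 for Neb, Myot and Tnnt3, 0.93 for Myh1, Actn2 and Pygm, and 0.92 for Atp2a1 and Ryr1. Myh4 had the lowest value of the fast genes, 0.51, and without KHR 5 it was 0.00, so the first value rests on that tumour. Of the slow genes, Tnnc1 had 0.83 (0.82 without KHR 5) and Tnnt1 had 0.66 (0.52). Tnni1 had 0.19 and -0.39, Myl3 0.40 and -0.11, and Myl2 0.10 and 0.03. By its gene value, Tnnc1 was thus the slow gene nearest to the fast ones in its pattern over tumours, within a span of 0.69. Only 1 of its 5 probesets had an r above 0.5, and the brightest, at a mean log2 value of 9.14, had 0.25.

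The pairs of fast and slow forms were also correlated within each group of 6, which gave 14 relations. None passed after adjustment over the 14. In KHR, Tnnc2 and Tnnc1 had a Pearson r of 0.97 (exact permutation p = 0.00556, adjusted p = 0.0778) and a Spearman rho of 0.89 (exact permutation p = 0.0333, adjusted p = 0.233). Without the 2 tumours farthest from the median of Tnnc2, r was 0.95. The limit given above for the probesets of Tnnc1 holds here too. Actn3 and Actn2 in KHR had an r of 0.90 (exact permutation p = 0.0222, adjusted p = 0.156) and a rho of 0.89, and r was 0.96 without the 2 farthest tumours. In KR the same 2 pairs had r of 0.70 and 0.53.

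Most probesets of the long genes followed the muscle genes. Of the 785 probesets, 628 (80.0%) had an r above 0.5 with the mean of the other muscle genes. The same share over all probesets of the array was not taken. By class these were 527 of 580 shared probesets (90.9%), 96 of 134 fast probesets (71.6%) and 5 of 71 slow probesets (7.04%). Ttn had 265 of 272 and Neb 133 of 140, while Myh7 had 0 of 16 and Myl2 0 of 18. Myh4 had 3 of 10, and its brightest probeset had an r of -0.16. Ryr1 had 57 of 80, and its probesets, like those of Ckm, fell into 2 runs of probeset numbers. Their mean values lay between 3.73 and 9.87, and the brightest had an r of 0.61.

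Other genes of muscle were read in 7 further lists. Of 30 other sarcomere and Z-disc genes, 27 had a positive difference and 1 passed the limma test, downward, and their median r with the muscle level was 0.83. The medians were 0.80 for 16 energy genes, 0.62 for 10 genes of the dystrophin complex and membrane repair, and 0.48 for 18 genes of excitation-contraction coupling. They were 0.23 for 9 neuromuscular junction genes, 0.15 for 12 myogenic regulators and satellite cell genes, and 0.30 for 14 embryonic, regenerating or cardiac-type genes, beside -0.03 for all genes. Without KHR 5 the medians were 0.77 for the sarcomere, 0.73 for the energy, 0.58 for the dystrophin and 0.33 for the coupling genes. They were then -0.10 for the junction, 0.02 for the myogenic and 0.13 for the embryonic genes, beside -0.02 for all genes. None of the energy, dystrophin, junction and myogenic genes passed the limma test. Among the regulators, over all 12 tumours, Mef2c (0.89) and Myf6, the factor of mature fibres (0.87), followed the muscle level. Pax7, the satellite cell factor, had -0.04, Myf5 0.17, Myod1 -0.32 and Myog 0.07. Embryonic myosin, Myh3, had -0.19 and a mean log2 value of 3.58.

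Of the muscle genes in these lists, 3 passed the limma test, and their r with the muscle level lay between -0.44 and 0.48. They were 1 of 18 coupling genes, 1 of 14 embryonic or cardiac-type genes and 1 of 30 sarcomere genes. The other 4 lists gave none, and 3.74% of all genes passed. Casq2, the calcium store protein of slow and heart muscle, rose in KHR. It lay at 5.76, 6.01 and 6.50 in KR and at 6.61, 7.13 and 8.14 in KHR, without overlap. The difference was 1.18 ± 0.23 (SE, limma adjusted p = 0.0105), and the r of Casq2 with the muscle level was 0.21. With a median polish over probesets the difference was 0.72 and the limma adjusted p 0.0658. Over the brighter probesets they were 0.81 and 0.0713. Tnnt2, the troponin T of heart and embryonic muscle, rose by 0.88 ± 0.19 (limma adjusted p = 0.0181) from 7.78 ± 0.31 to 8.65 ± 0.40, with an r of 0.48. Under the median polish its difference was 0.38 and its limma adjusted p 0.0879, and over the brighter probesets they were 0.40 and 0.127. Tpm3, which encodes slow and non-muscle tropomyosin, fell by 0.65 ± 0.15 (limma adjusted p = 0.0287) from 6.99 ± 0.22 to 6.35 ± 0.32, with an r of -0.44. Its call was lost under the median polish, at -0.25 (limma adjusted p = 0.134). It was also lost without any of KR 1, KR 5, KR 6, KHR 2, KHR 3 or KHR 5, with limma adjusted p up to 0.0617. Adssl1, a purine enzyme of muscle, differed by 1.04 ± 0.32 (limma adjusted p = 0.0978), and by 1.32 without KHR 1 (limma adjusted p = 0.00604). Myom2, an M-band protein, differed by 0.90 ± 0.34 (limma adjusted p = 0.188), and by 1.14 without KHR 1 (limma adjusted p = 0.0473). Lrp4 of the neuromuscular junction differed by -0.76 (limma adjusted p = 0.0859) and the atrial light chain Myl4 by 0.80 (limma adjusted p = 0.0585). Lrp4 passed under 6 of 23 alternatives, with limma adjusted p down to 0.0184, and Myl4 under 4 of 22, down to 0.0116. With the tumour number as a block, Adssl1 (limma adjusted p = 0.0385), Myom2 (0.0460) and Myl4 (0.0252) passed.

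The genes outside the 30 most like the muscle level were searched among 11527 genes whose SD within groups was above the median, as the highest Pearson r over 12 tumours with group means subtracted. The 10 highest were Nrap (0.97), Mybpc1 (0.96), Xirp2 and Myom2 (0.95), Myom1 and Smpx (0.94), Trdn, Csrp3 and Hspb7 (0.93) and Nkapd1 (0.92). Of these, 8 stand in the muscle lists above. Nrap lay at 4.73, 5.83 and 6.66 in KR and at 4.78, 6.71 and 8.06 in KHR. The r was above 0.9 for 20 of the 11527 genes and below -0.9 for 7. The 5 lowest were Vmn2r95 (-0.94), Lrp10 (-0.93), Ecm1 (-0.92), Llgl2 and Nudt22 (-0.91).

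Markers of other cells were read in the same way. The median r with the muscle level was -0.07 for 10 smooth muscle genes, -0.09 for 10 keratinocyte genes, 0.16 for 8 fibroblast genes, 0.16 for 7 endothelial genes, -0.06 for 7 adipocyte genes, -0.10 for 8 salivary gland genes and 0.16 for 4 Schwann cell genes. It was 0.31 for 6 atrophy genes, and the r of Alas2, the only blood gene measured, was 0.18. Of 7 macrophage genes, 5 had an r above 0.5 and their median was 0.59. Adgre1 had 0.87 and Mrc1, a receptor of tissue macrophages, 0.78, against -0.68 for Cd68, a lysosomal protein. The mean macrophage value per array lay between 5.43 and 6.25 in KR and between 5.88 and 6.54 in KHR, and its part in the muscle level was not tested. Among these lists, the limma test was passed by Krt13, a keratin of oral epithelium, which fell by 1.26 (limma adjusted p = 0.00571), and by Col1a2, a collagen chain, which fell by 0.80 (limma adjusted p = 0.0220). The call of Col1a2 was lost without KHR 4 (limma adjusted p = 0.0578) and without KHR 6 (limma adjusted p = 0.0525). It was also lost with Xist as a covariate (limma adjusted p = 0.0581), with the median polish (limma adjusted p = 0.0507) and over the brighter probesets (limma adjusted p = 0.143).

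**Figure D5:**
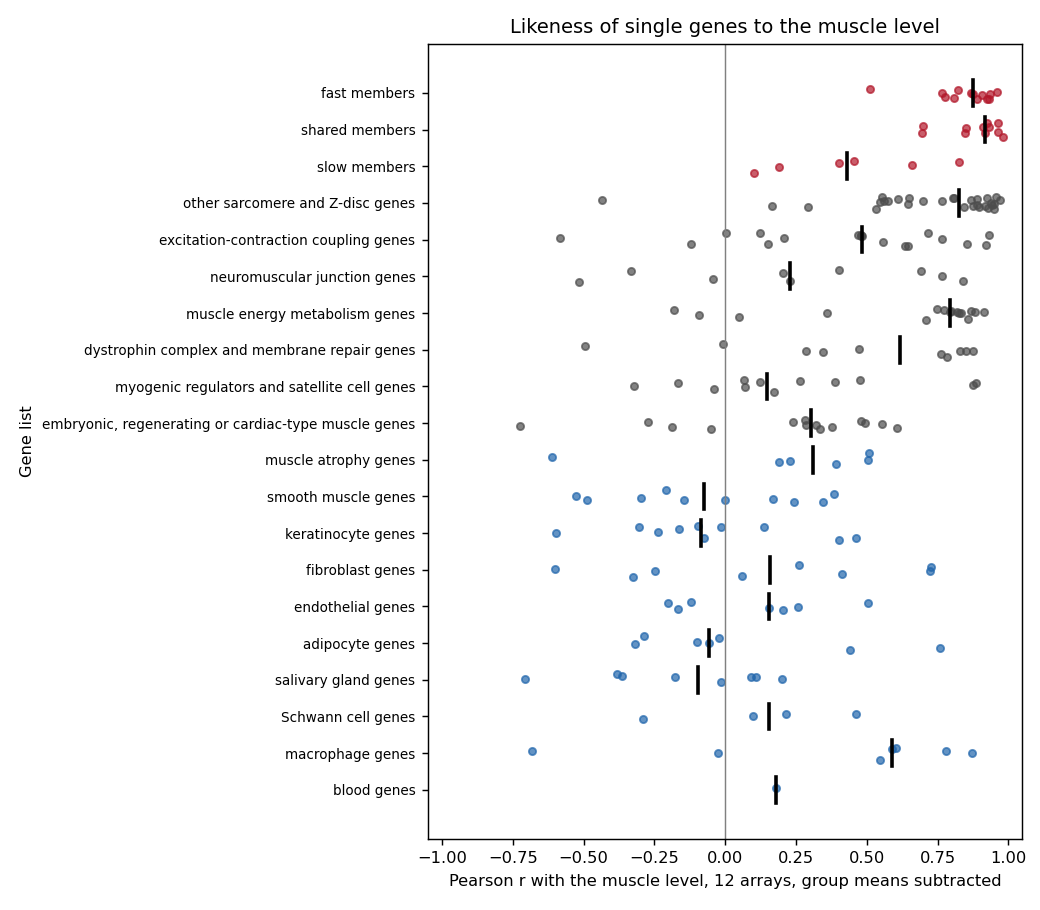
Pearson r of single genes with the muscle level over 12 tumours, group means subtracted; each point is a gene, bars are list medians, red marks the 30 muscle genes by class (r with the mean of the other 29), grey the other muscle lists and blue atrophy genes and other cell types. Fast and shared genes and the other sarcomere genes crowd at the right, with medians from 0.83 to 0.92. The slow genes spread from 0.10 to 0.83, and the myogenic and satellite cell genes reach down to -0.32.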

How the data were processed

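Total RNA of 12 mouse oral tumours was hybridised to 1 array each. The deposited values are log2 intensities per probeset and array, made by the authors with Partek, per the submitters' processing notes; no source used here gives the background correction, normalization, genome build or log base, and the base was read from the range of the values. Of 269751 probesets, 233753 had 1 gene symbol in GEO's platform annotation, 5106 had several and 30892 had none, and only the first were used. Older symbols (2247) were updated through RefSeq's GRCm38.p6 table. A gene's value was the median over its probesets, for 23102 genes, with no filter on dim genes. KHR was compared with KR by limma 3.58.1 (lmFit and eBayes, R 4.3.3), two-sided, with Benjamini-Hochberg adjustment over all genes and a threshold of 0.05, tested on simulated data. Ratios and correlations of gene pairs used exact permutation tests (scipy 1.17.1). Named genes were the 30 members, the 2 genes of lowest p in each other list (others are given for their known role), and the 10 genes most and 5 least like the muscle level. The members and lists were chosen with earlier results of these data known. Alternatives covered the probeset summary, scaling, filters, moderation, array weights, Xist, the replicate block and each array left out. The labels and the table give no scan date or other batch.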

Additional observations from a re-analysis of the deposited data

Results flagged for a closer look

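In 70 groups of 6 values, the highest or lowest tumour was compared with the rest by its gap over the range, for which chance alone marks about 1 group in 20. There were 4 such values. Of these, 3 concerned KHR 5. Its Myl3, a slow light chain, was 4.10 on the log2 scale, against 3.77 in the next KHR tumour. Its Tcap was 6.35, against 5.38 in the next. Its mean level of the 6 slow genes was 0.30, against 0.04 in the next. In KR, the Eno3 value of KR 5 was 7.85, against 7.25 in the next KR tumour.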

How the results depend on the processing

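The count of 0 muscle genes past the threshold held under all alternatives but the replicate block, under which 4 passed: Ryr1 (limma adjusted p = 0.00696), Ttn (0.0164), Neb (0.0381) and Myh1 (0.0385). The block also put 12 of the 30 under an unadjusted p of 0.05 and brought Adssl1 (0.0385), Myom2 (0.0460) and Myl4 (0.0252) past the threshold. The labels give both groups the numbers 1 to 6 without saying what a number shares. The correlation of same-numbered tumours' deviations lay between -0.003 and 0.234, above 0.1 for 2 of 6 numbers. On that ground the main fit did not take the numbers as pairs. The muscle level, however, ordered the numbers alike in both groups, from lowest to highest 1, 6, 3, 2, 4 and 5. What this shared order reflects was not tested. The median change lay between 0.18 and 0.56 with 1 tumour left out, lowest without KHR 5, and was 0.68 for the 20 members among the brighter genes. The range of the muscle level lay between 1.86 and 2.21 under the other probeset summaries, scalings and the median over members, and was 1.40 without KHR 5, added after seeing the data, while no fast to slow ratio or relation passed under any alternative run. The difference of 8 muscle genes changed sign somewhere. Over the brighter probesets of each gene, added after seeing the data, the difference was 0.93 for Ckm, 0.18 for Mb, 0.0475 for Myh7, -0.0121 for Myh4, -0.0805 for Art1, -0.00746 for Cnn1 and 0.00705 for Pmp22. With the mean over probesets it was 0.10 for Ckm and 0.0743 for Mb, and with the median polish 0.0466 for Ckm, 0.15 for Mb and 0.0129 for Myh7. For Pvalb it was -0.0144 with quantile normalization, -0.0290 with array medians subtracted, -0.0728 with array weights and -0.00488 with Xist. With each tumour left out it ranged from -0.20 to 0.50 for Casq1, -0.21 to 0.13 for Pvalb, -0.0808 to 0.0253 for Myh7, -0.0016 to 0.0998 for Myl3, -0.16 to 0.12 for Mb, -0.00031 to 0.35 for Tcap and -0.0797 to 0.29 for Smpx. The cause was not tested, except that the median of Ckm spans 2 runs of probesets of unlike brightness.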

Other observations

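Some genes outside muscle varied with the muscle level within groups, and they are given as values. Among the 8 fibroblast genes, Dcn and Fap had an r of 0.72 and 0.73 with the muscle level (0.61 and 0.52 without KHR 5). Col1a1 had -0.60 (-0.55 without KHR 5). Myl7, the atrial light chain, had -0.72 (-0.78 without KHR 5) at a mean log2 value of 7.54. Atp2a2, the calcium pump of slow fibres and of many other cells, had -0.58, and -0.23 without KHR 5. The fast-fibre pump Atp2a1 had 0.92 with the other members, and 0.94 without KHR 5. Ecm1 lay at 10.85, 11.21 and 11.37 in KR and at 10.16, 10.76 and 11.05 in KHR (lowest, median and highest).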
